A study of Homo sapiens with 16 samples.

Results

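The genes described here are RNA-binding proteins that steer alternative splicing and that are mostly known from particular tissues, such as muscle, brain or epithelium. The rule named 38 of them and took every row of the deposited expression table whose gene symbols contain a member, rows shared with other genes included, and for a gene on several rows the row with the highest mean. Of the 38 genes 36 had a row among the 18495 rows of the table. RBM20 and RBFOX3 had none under these symbols and are not analysed here. For 3 members the row also carried another gene. These were RBM5 (shared with RBM6), ESRP2 (shared with NFATC3) and RBM10 (shared with NDUFB11), and their values cannot be assigned to the member alone.

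H9, an established line of human embryonic stem cells, was followed at passages 40 to 50 toward endoderm in the study, and total RNA was measured on Human Exon 1.0 ST arrays. Day 0 was undifferentiated cells, 4 biological samples, grown on mouse embryonic fibroblasts or on Matrigel in medium conditioned by such fibroblasts, with basic FGF at 8 ng/ml. Days 1, 3 and 5 were cells in RPMI-1640 with activin A, a ligand of the nodal pathway, at 100 ng/ml, with 3, 3 and 4 biological samples, while serum was raised from 0% over 0.2% to 2%. Activin, medium, serum and time in culture changed together, and basic FGF and fibroblasts or their conditioned medium are given only for day 0. The effects of all these cannot be told apart, and all groups come from 1 cell line. The labels call the samples biological replicates without saying what separates them. The arrays were made from whole cultures, in which fewer cells of a type and less RNA per cell cannot be told apart.

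A splicing regulator binds short motifs in a pre-mRNA and favours or blocks the use of a nearby exon, so the same gene can yield different proteins in different cells. PTB and MBNL proteins are known to act on splicing that differs between pluripotent and differentiated cells. ESRP proteins maintain epithelial isoforms, and RBM24 is best known from heart and skeletal muscle, where it promotes inclusion of muscle exons. The deposited values are 1 per gene-level probe set, so they report how much of each regulator's RNA was present and say nothing about which exons were used.

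Values below are log2(intensity + 1), and a difference is on the same scale, so 1 unit is a doubling. Replicate 2 of days 3 and 5 stood apart. Over all rows the median correlation to samples of its own day was 0.829 for day 3 replicate 2 and 0.858 for day 5 replicate 2, and 0.901 to 0.962 for each of the remaining samples. In day 3 replicate 2 the 10 definitive endoderm markers summed to 11.91, against 15.26 and 15.43 in the other day 3 samples, while day 0 lay between 11.35 and 12.82 and day 5 between 15.36 and 15.83. The library labelled day 3 replicate 2 therefore did not carry the endoderm marker level of its group, and the day 3 differences below are given with and without it. Its pluripotency markers summed to 15.36, beside 15.24 and 15.39 in the other day 3 samples and 15.82 to 16.10 at day 0. Of these markers DPPA4 (13.4) and ZFP42 (12.22) stood above their day 0 means of 13.11 and 11.51, and the remaining ones stood below theirs. Its primitive streak markers summed to 9.0, against 13.82 and 13.6 in the other day 3 samples and 9.09 to 9.78 at day 0. What set this library apart was not tested. Biological replicate 4 of days 0 and 5 was hybridised on a pair of arrays, whose values differed by a median of 0.18 over the members on either day.

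The comparison of day 5 with day 0 asked which regulators set the endoderm stage apart from stem cells. RBM24 and MBNL3 rose and RBM47 fell. These 3 of 36 members (8.33%) passed limma with a Benjamini-Hochberg adjusted p under 0.05 over all rows, against 5.46% of all 18495 rows. By direction, 2 members were higher, against 2.56% of rows, and 1 was lower, against 2.89%. The median change over the 36 members was -0.04, beside -0.02 over all rows, and 21 of the 36 changed by less than 0.5 in either direction, as did 63.1% of rows. A difference of more than 1 was seen in 9 members and in 12.2% of rows.

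**Figure D1:**
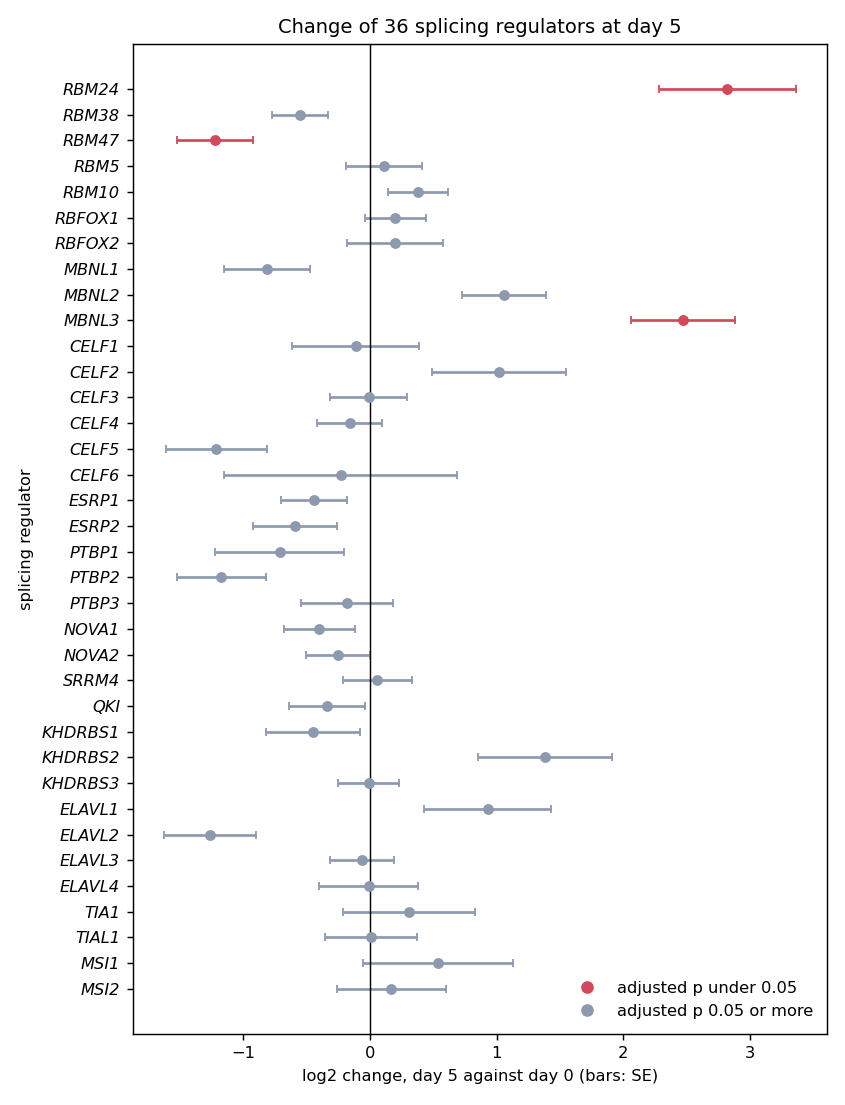
Log2 change at day 5 against day 0 of the 36 splicing regulators with a row (horizontal axis, points, bars are SE), listed by family down the page, with members past an adjusted p of 0.05 in red. RBM24 at 2.82 and MBNL3 at 2.47 lie to the right and RBM47 at -1.22 to the left.

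RBM24, an RNA-binding protein that controls muscle exons, had the highest rise. At day 0 its log2 values were 5.90, 6.55, 6.65 and 7.46 in replicates 1 to 4. At day 1 they were 5.66, 6.52 and 6.93 in replicates 1 to 3, within the day 0 range but for replicate 1. At day 3 they were 9.17, 6.57 and 9.36, with replicate 2 inside the day 0 range and the other samples above it. At day 5 they were 9.39, 9.19, 9.65 and 9.58, all above every day 0 sample, and day 5 replicate 2 did not stand apart. RBM24 averaged 9.45 ± 0.21 at day 5 and 6.64 ± 0.64 at day 0 (SD, n = 4 each), a rise of 2.82 ± 0.54 (SE) or 7.06-fold (limma adjusted p 0.00879). In linear intensity that was 585 to 803 at day 5, against 58.5 to 175 at day 0.

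MBNL3 rose with it. MBNL3 belongs to the muscleblind family, zinc finger proteins that switch many exons between fetal and adult forms, and in mouse muscle cells it is known to restrain differentiation. Its log2 values were 7.11, 6.94, 7.20 and 6.27 at day 0, and 7.49, 6.99 and 7.96 at day 1. They were 8.88, 7.01 and 9.0 at day 3, where replicate 2 again lay within the day 0 range, and 9.08, 9.74, 9.34 and 9.23 at day 5, where all 4 samples lay above all day 0 samples and replicate 2 was the highest. MBNL3 averaged 9.35 ± 0.28 at day 5 and 6.88 ± 0.42 at day 0 (SD, n = 4 each), a rise of 2.47 ± 0.41 (SE) or 5.53-fold (limma adjusted p 0.00365). The calls of RBM24 and MBNL3 at day 5 held without any 1 sample of either day, with adjusted p values up to 0.0367 for RBM24 and up to 0.0148 for MBNL3.

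**Figure D2:**
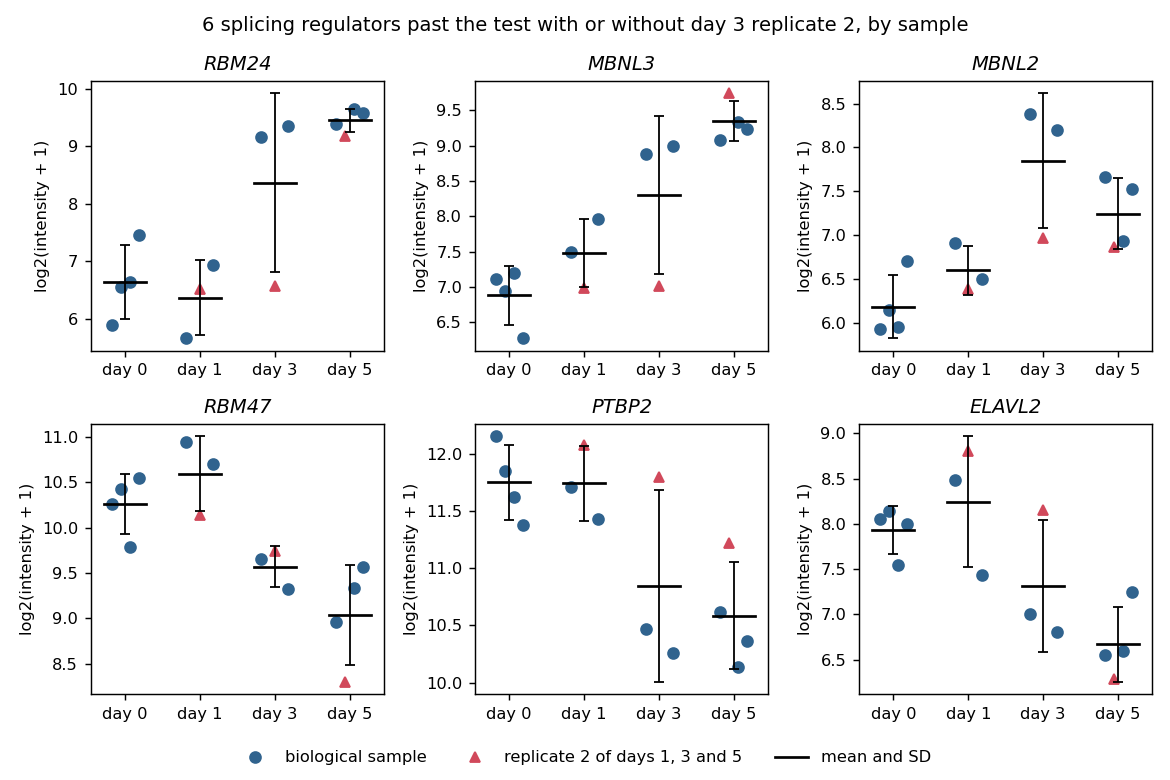
Log2(intensity + 1) of 6 splicing regulators in each biological sample (points) at days 0, 1, 3 and 5, with the mean and SD of each day and replicate 2 of days 1, 3 and 5 as red triangles. RBM24, MBNL3 and MBNL2 are higher at day 5 than in every day 0 sample, RBM47, PTBP2 and ELAVL2 are lower, and day 3 replicate 2 sits near the day 0 level for RBM24, MBNL3, PTBP2 and ELAVL2.

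Since RBM24 and MBNL3 are the members that rose together, the 250 bases before their RefSeq start on GRCh38.p14 are shown, on the gene's strand, with the letters of any searched motif in capitals. RBM24 has 1 start in the table, and its window is chr6:17281814-17282063 on the plus strand. MBNL3 has 4 starts, and the outermost is shown, chrX:132490036-132490285 on the minus strand.
RBM24: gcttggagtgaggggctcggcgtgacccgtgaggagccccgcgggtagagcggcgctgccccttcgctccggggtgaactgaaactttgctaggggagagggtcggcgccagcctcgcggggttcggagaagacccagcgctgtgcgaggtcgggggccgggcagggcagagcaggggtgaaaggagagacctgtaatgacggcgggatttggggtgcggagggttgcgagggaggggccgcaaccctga
MBNL3: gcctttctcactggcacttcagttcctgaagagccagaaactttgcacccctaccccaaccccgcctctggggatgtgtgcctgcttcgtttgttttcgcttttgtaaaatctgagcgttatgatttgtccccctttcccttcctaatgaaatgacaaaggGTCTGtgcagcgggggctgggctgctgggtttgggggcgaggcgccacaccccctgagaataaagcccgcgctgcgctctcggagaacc

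The motifs searched on both strands were the T-box core TCACAC, the GATA site AGATAA, the forkhead site TGTTTAC and the SMAD element CAGAC, after factor families active in early endoderm. The RBM24 window held none of them. The MBNL3 window held the SMAD element once, which 38% of all 35116 start windows hold. Among the MBNL3 starts not shown the T-box letters also occurred. Of the 38 members 30 had a start in the table, 84 windows in all. The T-box letters were in 6 of these 84 (9.9% of all windows), the GATA letters in 6 (9.17%), the forkhead letters in 2 (2.98%) and the SMAD letters in 31. The RBM24 window was 69.2% G or C and the MBNL3 window 56.4%, beside a median of 58% over all windows. A match is only a match of letters.

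RBM47, which binds RNA in endoderm-derived epithelia and is known as a partner of APOBEC1 in editing as well as a splicing regulator, went the other way. Its log2 values were 10.26, 10.42, 9.79 and 10.55 at day 0, 10.94, 10.14 and 10.70 at day 1, 9.65, 9.74 and 9.32 at day 3, and 8.96, 8.30, 9.33 and 9.56 at day 5. All day 3 and all day 5 samples lay below all day 0 samples, and day 5 replicate 2 was the lowest. RBM47 fell by 1.22 ± 0.30 (SE, limma adjusted p 0.0303) to 9.04 ± 0.55 at day 5, against 10.26 ± 0.33 at day 0 (SD, n = 4 each). This call was less secure than those of RBM24 and MBNL3: the adjusted p was 0.0837, 0.0939 and 0.0947 without day 0 replicates 1, 2 and 4, 0.0826 and 0.0683 without day 5 replicates 1 and 2, and 0.0611 in a fit of only these days.

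The groups of day 5 and day 0 did not overlap for 9 of the 36 members. Of these 3 were above (RBM24, MBNL3 and MBNL2), against 6.07% of all rows, and 6 were below (RBM47, RBM38, CELF5, ESRP2, PTBP2 and ELAVL2), against 8.57% of rows. Without day 3 replicate 2, which enters this comparison only through the shared estimate of spread, 6 members passed (16.7%), against 8.73% of rows, the additional ones being MBNL2, PTBP2 and ELAVL2.

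MBNL2, a muscleblind protein prominent in brain, had log2 values of 5.93, 6.15, 5.95 and 6.71 at day 0, 6.91, 6.38 and 6.5 at day 1, 8.38, 6.97 and 8.20 at day 3, and 7.66, 6.86, 6.93 and 7.53 at day 5. It is the member in which all day 3 samples, replicate 2 included, lay above all day 0 samples. Against day 0 it differed by 1.06 ± 0.33 at day 5 (limma adjusted p 0.0904, and 0.0217 without day 3 replicate 2). At day 3 it differed by 1.67 ± 0.36 with all samples (adjusted p 0.165) and rose by 2.11 without replicate 2 (adjusted p 0.00315).

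PTBP2, the PTB paralogue that predominates in developing neurons and represses neuronal exons, had log2 values of 12.15, 11.85, 11.62 and 11.38 at day 0, 11.71, 12.08 and 11.43 at day 1, 10.47, 11.80 and 10.26 at day 3, and 10.62, 11.22, 10.14 and 10.36 at day 5. At day 3 replicate 2 stayed within the day 0 range while the others lay below it. The difference at day 5 was -1.17 ± 0.35 (limma adjusted p 0.078, and 0.0166 without day 3 replicate 2). At day 3 it was -0.90 ± 0.38 with all samples (adjusted p 0.509), and without replicate 2 PTBP2 fell by 1.38 (adjusted p 0.0398).

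ELAVL2, an Hu protein of neurons and germ cells, had log2 values of 8.05, 8.14, 7.55 and 8.00 at day 0, 8.49, 8.81 and 7.43 at day 1, 7.0, 8.15 and 6.80 at day 3, and 6.55, 6.28, 6.59 and 7.25 at day 5. The 4 day 5 samples lay below the 4 day 0 samples. The difference was -1.26 ± 0.36 (limma adjusted p 0.0649, and 0.0231 without day 3 replicate 2). It also passed in a fit of only these days (adjusted p 0.0269).

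The comparison of day 1 with day 0 asked which regulators move first. None of the 36 members passed limma, 0 had an unadjusted p under 0.05 and in 0 did the groups separate, against 0.00541% of rows called, 6.03% with an unadjusted p under 0.05 and 11.5% with separate groups. Without day 3 replicate 2 again 0 members passed, against 0.249% of rows, with 1 at an unadjusted p under 0.05, against 8.31% of rows. The median change was 0.09 over the members and 0.03 over all rows. The 6 primitive streak markers had summed log2 levels of 13.23 to 14.65 at day 1, against 9.09 to 9.78 at day 0. None of these 6 passed limma with all samples, although all 6 had an unadjusted p under 0.05, and 4 passed without day 3 replicate 2. MSI1, an RNA-binding protein of neural and intestinal stem cells, had a large difference among the members, with log2 values of 10.79, 9.44 and 11.17 at day 1, against 9.49, 9.32, 9.46 and 9.48 at day 0. Replicates 1 and 3 stood more than 1 unit above every day 0 sample and replicate 2 did not, and the difference of 1.03 ± 0.64 had an adjusted p of 1. The day 3 values of MSI1 were 10.96, 8.07 and 11.05, and the day 5 values 10.19, 9.10, 10.48 and 10.15, with replicate 2 the lowest on either day.

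Day 3 was compared with day 0 and with day 1 to ask when the later changes set in. With all samples none of the 36 members passed limma in either comparison, against 0.027% and 0.0324% of rows, with 4 and 7 members at an unadjusted p under 0.05, against 8.56% and 8.62% of rows. The groups of day 3 and day 0 did not overlap for MBNL2, which was above (3.27% of rows), and for RBM47, which was below (6.55% of rows). Without day 3 replicate 2 there were 4 members past the test against day 0 (11.1%), against 3.19% of rows: RBM24, MBNL3 and MBNL2 were higher and PTBP2 was lower. Against day 1 without it 3 members passed (8.33%), against 2.73% of rows, again RBM24, MBNL3 and MBNL2, all higher. These comparisons share the day 3 samples.

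RBM24 differed from day 0 by 1.73 ± 0.59 at day 3 with all samples (limma adjusted p 0.347) and rose by 2.63 without replicate 2 (adjusted p 0.00449). Set against day 1, RBM24 differed at day 3 by 1.99 ± 0.63 with all samples (adjusted p 0.31) and rose by 2.89 without replicate 2 (adjusted p 0.00579). MBNL3 differed from day 0 by 1.42 ± 0.44 (adjusted p 0.304) and rose by 2.06 without replicate 2 (adjusted p 0.00519). From day 1 it differed by 0.82 ± 0.47 with all samples (adjusted p 0.713) and rose by 1.46 without replicate 2 (adjusted p 0.0464). MBNL2 differed from day 1 by 1.25 ± 0.38 with all samples (adjusted p 0.299) and rose by 1.69 without replicate 2 (adjusted p 0.0198). Once replicate 2 is left out, the day 3 changes against day 0 and against day 1 all rest on 2 day 3 samples.

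Day 5 was compared with day 3 to ask whether the regulators kept changing. None of the 36 members passed limma, with or without day 3 replicate 2, against 0.0973% and 0.157% of rows, and 2 members had an unadjusted p under 0.05 with all samples (5.99% of rows) and 6 without it (10.8% of rows). RBM24 differed by 1.09 ± 0.59 with all samples (adjusted p 0.937) and by 0.19 without day 3 replicate 2 (adjusted p 0.846). MBNL3 differed by 1.05 ± 0.44 (adjusted p 0.762) and by 0.41 without it (adjusted p 0.617), and MBNL2 by -0.60 ± 0.36 (adjusted p 0.966) and by -1.04 without it (adjusted p 0.262). In order of mean level RBM24 therefore ran day 1, day 0, day 3 and day 5. Days 1 and 0 did not differ beyond their spread, nor did days 3 and 5. With all samples day 3 did not pass against day 0 or day 1 either (limma adjusted p 0.347 and 0.31). It passed only without day 3 replicate 2. A moderated F test over days 1, 3 and 5 against day 0 called RBM24 (adjusted p 0.0177), MBNL3 (0.0174) and RBM47 (0.0386), 3 of 36 members (8.33%) against 3.73% of rows. Without day 3 replicate 2 it called 6 (16.7%), against 8.2% of rows.

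**Figure D3:**
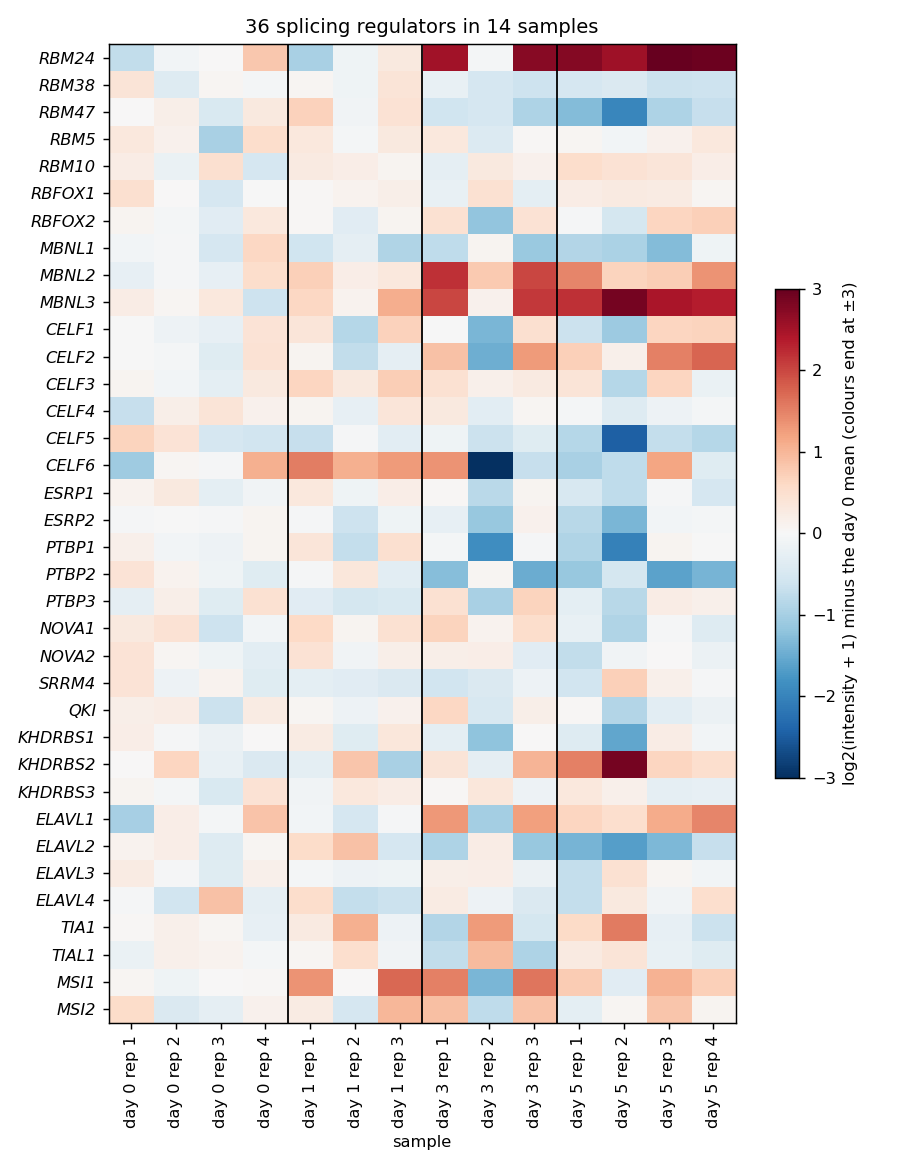
Log2(intensity + 1) of the 36 splicing regulators (rows, by family) in the 14 biological samples (columns, by day), each relative to the gene's own day 0 mean, with colours ending at 3 units above or below. RBM24 and MBNL3 are red in day 3 replicates 1 and 3 and in all day 5 samples, and day 3 replicate 2 and day 5 replicate 2 are blue for PTBP1, CELF1 and KHDRBS1 and red for TIA1.

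Relatives within families were compared in 14 pairs. Levels of different probe sets cannot be compared, so only the change over time of the difference between relatives within a sample is described, without a test. At day 5 this difference did not overlap with day 0 in 5 pairs and overlapped in 9, among them the PTBP, ESRP, KHDRBS, MSI, TIA, NOVA and RBFOX pairs and RBM10 with RBM5. How often the difference of any 2 rows separates these days was not counted, so the 5 are a description only. Each of the 5 except CELF2 minus CELF1 held a member whose own day 5 and day 0 groups did not overlap. MBNL3 minus MBNL2, which averaged 1.41 at day 5, was among the 5. MBNL1, the most widely expressed muscleblind protein, averaged 8.08 ± 0.49 at day 5 and 8.89 ± 0.46 at day 0 (SD, n = 4 each), a difference of -0.81 ± 0.34 (SE, limma adjusted p 0.231). The log2 difference MBNL3 minus MBNL1, set to 0 at its day 0 mean, averaged 3.28 at day 5, and its lowest day 5 sample at 2.48 lay above the highest day 0 sample at 0.82. RBM38, the paralogue of RBM24 and a p53 target, differed by -0.55 ± 0.22 at day 5 (adjusted p 0.188), and RBM38 minus RBM24 averaged -3.37 at day 5, with no overlap with day 0. At day 3 this difference averaged -3.05 without replicate 2 and -2.18 with it.

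**Figure D4:**
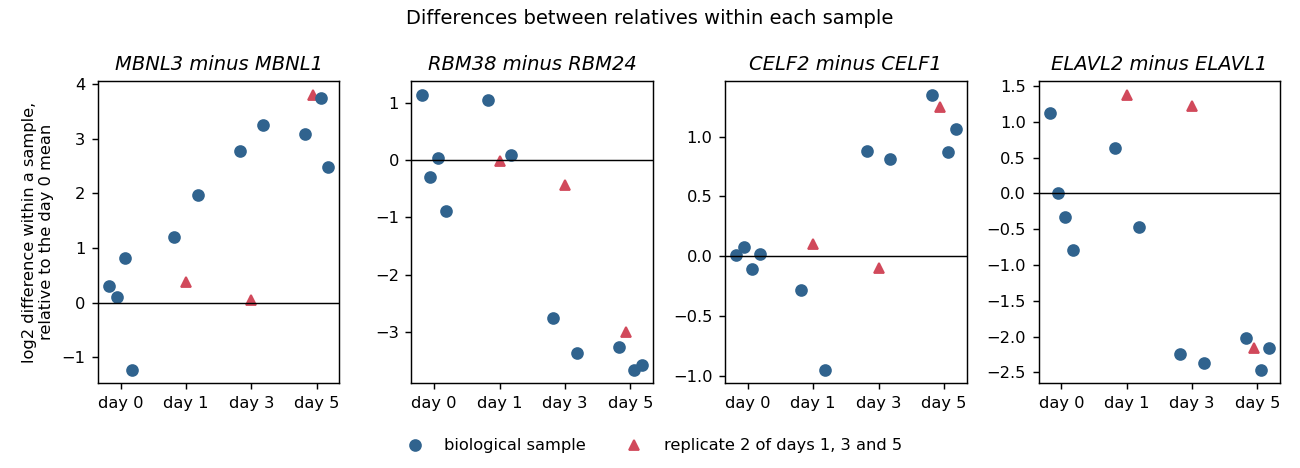
Log2 difference between relatives in 4 of the 5 pairs that did not overlap at day 5, shown within each biological sample (vertical axis, day 0 mean set to 0) at days 0, 1, 3 and 5, with replicate 2 of days 1, 3 and 5 as red triangles. At day 5 all samples of MBNL3 minus MBNL1 and of CELF2 minus CELF1 lie above day 0 and all samples of RBM38 minus RBM24 and of ELAVL2 minus ELAVL1 lie below it, while day 3 replicate 2 lies among or near the day 0 samples.

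CELF proteins bind GU-rich RNA and oppose muscleblind proteins at many muscle exons. CELF1 averaged 11.63 ± 0.90 at day 5 and 11.74 ± 0.29 at day 0, a difference of -0.11 ± 0.50. CELF2 stood at 9.56, 9.01, 10.36 and 10.59 at day 5, against 8.85, 8.79, 8.49 and 9.29 at day 0, a difference of 1.02 ± 0.53 (limma adjusted p 0.369). CELF2 minus CELF1 averaged 1.13 at day 5, above all day 0 samples in all 4. CELF2 passed at day 5 only with day 3 and day 5 replicate 2 both left out.

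The remaining CELF members are mostly neuronal, and CELF3, CELF4, CELF5 and CELF6 were among the 8 members in the dimmest 25% of rows. CELF5 lay at 5.27, 3.66, 5.41 and 5.27 at day 5, against 6.79, 6.53, 5.60 and 5.54 at day 0, a difference of -1.21 ± 0.40 (limma adjusted p 0.113). CELF6 stood at 2.70, 3.83, 3.73 and 4.84 at day 0, 5.30, 4.83 and 5.05 at day 1, 5.13, -0.46 and 3.09 at day 3, and 2.80, 3.01, 4.95 and 3.40 at day 5. Its differences of 1.29 ± 0.99 at day 1 against day 0 (adjusted p 1) and -2.48 ± 1.06 at day 3 against day 1 (adjusted p 0.518) were large in size only. Day 3 replicate 2 was the lowest CELF6 sample, and without it the difference from day 1 was -0.95. CELF3 and CELF4 differed by -0.01 ± 0.30 and -0.16 ± 0.26 at day 5.

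PTBP1, the general repressor of alternative exons in non-neuronal cells, averaged 12.00 ± 0.98 at day 5 and 12.71 ± 0.14 at day 0 (SD, n = 4 each), a difference of -0.71 ± 0.51. Its day 5 samples stood at 11.82, 10.69, 12.79 and 12.70, so that replicates 3 and 4 were at the day 0 level. PTBP3 differed by -0.18 ± 0.36 at day 5. ESRP1 and ESRP2 keep epithelial exons in genes such as FGFR2 and CD44. ESRP1 averaged 11.07 ± 0.31 at day 5 and 11.51 ± 0.25 at day 0, a difference of -0.44 ± 0.26 (limma adjusted p 0.443). The row of ESRP2 and NFATC3 stood at 8.28, 7.73, 9.02 and 9.04 at day 5, against 9.07, 9.10, 9.08 and 9.19 at day 0, a difference of -0.59 ± 0.33 (adjusted p 0.421).

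Beside these values, among 7 epithelial marker genes CDH1, the E-cadherin gene, fell by 1.95 ± 0.40 at day 5 (limma adjusted p 0.012), while EPCAM differed by 0.53 ± 0.21 (adjusted p 0.216). The keratins KRT19 and KRT8 differed by 1.74 ± 0.50 (adjusted p 0.0657) and 1.22 ± 0.55 (adjusted p 0.274). Of the 7 genes 4 differed by more than 0, and without day 3 replicate 2 KRT19 and KRT8 passed as higher (adjusted p 0.000759 and 0.0398) and CDH1 and CLDN4 as lower. The summed epithelial level was 14.46 to 15.96 at day 5, against 14.76 to 15.09 at day 0. FGFR2, whose exons ESRP proteins choose, fell by 1.20 ± 0.28 in its total level (adjusted p 0.0239). Whether the level of FGFR2 or CDH1 and that of the ESRP genes are related was not tested.

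RBFOX proteins bind UGCAUG and act in muscle, brain and stem cells. RBFOX2, the form known from embryonic stem cells, averaged 10.97 ± 0.59 at day 5 and 10.78 ± 0.28 at day 0, a difference of 0.20 ± 0.38. RBFOX1, the muscle and brain form, was among the dimmest rows and differed by 0.20 ± 0.24. The remaining neuronal regulators did not pass either. NOVA1 and NOVA2 differed by -0.40 ± 0.28 and -0.25 ± 0.25 at day 5, and SRRM4, which promotes neuronal microexons, by 0.06 ± 0.27. ELAVL3 and ELAVL4, Hu proteins of neurons, stayed between 3.84 and 5.60 in all samples. ELAVL1, the ubiquitous Hu protein, averaged 8.03 ± 0.45 at day 5 and 7.10 ± 0.77 at day 0, a difference of 0.93 ± 0.50 (limma adjusted p 0.399).

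KHDRBS2 belongs to the STAR family of KH-domain splicing factors and is known mainly from brain. Its log2 values were 6.56, 7.18, 6.32 and 6.11 at day 0, 6.25, 7.38 and 5.56 at day 1, 6.92, 6.27 and 7.57 at day 3, and 8.05, 9.42, 7.19 and 7.04 at day 5. Day 5 replicate 2 was the highest sample, and 1 day 5 sample lay within the day 0 range. The difference was 1.38 ± 0.53 at day 5 against day 0 (limma adjusted p 0.185), and 0.88 without day 5 replicate 2. KHDRBS1, the ubiquitous SAM68, and KHDRBS3 differed by -0.45 ± 0.37 and -0.01 ± 0.24. QKI, another STAR protein, which acts in muscle and glia, differed by -0.34 ± 0.30.

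RBM5 and RBM10 are tumour-suppressor splicing factors. The row of RBM5 and RBM6 differed by 0.11 ± 0.30 at day 5. RBM10 was on a pair of rows that disagreed in sign, the one shared with NDUFB11 at 0.38 ± 0.24 and its own row at -0.33 ± 0.32, neither past the test. MSI2, the broadly expressed Musashi protein, differed by 0.17 ± 0.43, and MSI1 by 0.54 ± 0.59. TIA1 and TIAL1, which bind U-rich sequences behind 5′ splice sites, differed by 0.31 ± 0.52 and 0.01 ± 0.36.

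The deviation of replicate 2 at days 3 and 5 ran over all rows. The members were near the share of all rows at day 3 and below it at day 5. In day 3 replicate 2, 19 of 36 members lay more than 1 unit from the mean of the other day 3 samples (52.8%, against 50.3% of all rows), 14 of them lower and 5 higher. In day 5 replicate 2 the number was 10 (27.8%, against 38.7% of rows). The members deviated to the same side on both days in 28 of 36 cases (77.8%, against 78.3% of rows). At days 3 and 5 the deviation of replicate 2 was -1.83 and -1.75 for PTBP1, -1.07 and -1.48 for KHDRBS1, and 1.97 and 1.66 for TIA1. For RBM24 it was -2.70 at day 3 and -0.35 at day 5, and for MBNL3 -1.93 at day 3 and 0.52 at day 5.

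Other genes of the splicing machinery, from lists written from textbook knowledge, gave a frame for these changes. Of 40 further auxiliary splicing regulators 3 passed limma at day 5, CLK1 higher (on a row shared with PPIL3) and SRPK1 and RBPMS lower, a share of 7.5% against 5.46% of all rows. SRPK1, a kinase of SR proteins, fell by 1.14 ± 0.22 (adjusted p 0.00881). RBPMS, an RNA-binding protein known from smooth muscle, fell by 1.17 ± 0.30 (adjusted p 0.0423). The median change of this list was -0.22, beside -0.02 over all rows. Of 35 core spliceosome genes 0 passed, against 5.46% of all rows, and the median change was -0.25. Of 24 genes whose transcripts the members are known to splice 2 passed (8.33%), FGFR2 lower and CAMK2D higher, with a median change of -0.28. CAMK2D, a kinase gene with exons spliced in heart muscle, rose by 1.41 ± 0.32 in its total level (adjusted p 0.0202).

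RBM24 is a heart and muscle gene, so the heart markers are given beside it. Of 9 listed genes 8 had a row, on 7 rows. Their summed log2 level was 9.63 to 10.70 at day 0, 9.68 to 9.97 at day 1, 10.86 to 11.38 at day 3 and 11.48 to 11.77 at day 5, with replicate 2 included on each day. The sum follows the brightest rows, and MYL7 averaged 8.55 at day 0 and 11.24 at day 5. The median over the same rows was 5.83 to 6.21 at day 0 and 5.82 to 6.3 at day 5. Of the 8 only MYL7, an atrial myosin light chain, passed, and rose by 2.68 ± 0.52 at day 5 (limma adjusted p 0.00854). The shared row of the heart myosins MYH6 and MYH7 averaged 6.03 at day 5 and 5.99 at day 0, ACTN2, a sarcomere actinin, averaged 5.22 at day 5 and 5.31 at day 0, and TBX5, a heart transcription factor, averaged 5.11 at day 5 and 5.73 at day 0. NKX2-5, a heart transcription factor, differed by 0.75 ± 0.52 (adjusted p 0.543), MYL2 by 0.40 ± 0.36 (adjusted p 0.651) and TNNI3 by 0.33 ± 0.31 (adjusted p 0.674). In all, 6 of the 8 heart genes differed by more than 0, with MYH6 and MYH7 counted from their shared row. Of 8 skeletal muscle markers 1 passed and 5 differed by more than 0. The row past the test carries DNAJC15 and DES, the gene of the muscle filament desmin. Its value cannot be assigned to DES alone. That row averaged 11.34 at day 5 and 4.83 at day 0, a rise of 6.51 ± 1.01 (limma adjusted p 0.00241). The muscle regulators MYOD1 and MYOG differed by -0.32 ± 0.27 and -0.17 ± 0.31, MYF6 by 0.81 ± 0.45 and MYF5 by 0.00 ± 0.73, and ACTA1, skeletal actin, by -1.32 ± 0.43 (adjusted p 0.101). The part of muscle cells in the rise of RBM24 was not tested.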

How the data were processed

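The authors deposited gene-level intensity values on a linear scale, 1 column per array. How the authors summarised and normalized the probes is not given in the sources used here, while hg18 is the build named per the submitters' processing notes. The table held values from -0.273 to 30307.1, 636 of them below 0, and array medians of 245.1 to 246.3. Precision is limited by the number of arrays.

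Values were taken to log2 after adding 1, technical arrays were averaged, and 14 biological samples were fitted by group alone (R 4.3.3, limma 3.58.1, functions lmFit and eBayes, 10 residual and 3 prior degrees of freedom). Benjamini-Hochberg adjustment ran over 18495 rows, with a threshold of 0.05. Of these 14577 carried 1 gene symbol, 2849 several and 1069 none, from the platform annotation. The members, lists and naming rule were chosen with earlier results of these data known. The rule names RBM24, MBNL3, each member past the test with or without day 3 replicate 2, and the 3 largest changes per comparison, and gives the others by family. A p-value sets a difference between days against the spread among samples of the same day, pooled over all days and moderated by eBayes. Promoter sequences came from RefSeq on GRCh38.p14. Tables and figures used matplotlib 3.10.9, numpy 2.4.6 and pandas 2.3.3 under Python 3.11.15.

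Replicate numbers are shared between days, but samples with the same number did not always deviate together. Correlations of their deviations from the group means ran from -0.284 to 0.645, so the numbers were not treated as pairs. Between days 1, 3 and 5 they were 0.509, 0.513 and 0.645 for replicate 2 and 0.365, 0.427 and 0.561 for replicate 3. For replicate 1 they were 0.188, -0.152 and -0.143. Samples with different numbers also correlated, as day 3 replicate 1 with day 5 replicate 4 (0.516). Alternatives were a pseudocount of 16, leaving out the dimmest 25% of rows, quantile normalization, median centring, a variance trend with robust eBayes, only the groups compared, a replicate block, either technical array alone, leaving out each sample, and leaving out replicate 2 of days 3 and 5 together.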

Additional observations from a re-analysis of the deposited data

Results flagged for a closer look

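In groups of 4 samples, 72 sets of values (36 members at days 0 and 5) were looked at for a sample far from the others, of which chance flags about 1 in 20. CELF5 in day 5 replicate 2 lay at 3.66, with the others at 5.27 to 5.41, and CELF5 was among the dimmest rows. QKI in day 0 replicate 3 lay at 10.62, with the others at 11.43 to 11.50.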

How the results depend on the processing

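At day 5 against day 0, 3 members passed and the count stayed between 2 and 6 leaving out each sample in turn. It was 7 with the replicate block (which also called MBNL1, MBNL2, PTBP2 and ELAVL2), and 7 with replicate 2 of days 3 and 5 left out together. RBM24 and MBNL3 passed in this comparison under every alternative run. At day 3 against day 0 the count ranged from 0 to 4 leaving out each sample, with 4 only without day 3 replicate 2, and was 5 with replicate 2 of days 3 and 5 left out. At day 3 against day 1 it ranged from 0 to 3, with 3 only without day 3 replicate 2, and was 6 with replicate 2 of both days left out. The F test count of 3 was 6 when day 3 replicate 2 was left out, 1 when day 5 replicate 1 was and 0 when day 5 replicate 3 was, and it was 5 with the replicate block and 7 with replicate 2 of both days left out. At day 1 against day 0 and at day 5 against day 3 the count was 0 under every alternative. No named change turned its direction. Over all 18495 rows, 1009 passed at day 5 (549 to 1614 leaving out each sample). At day 3 against day 0 it was 5 (0 to 590), against day 1 it was 6 (1 to 505), and at day 1 it was 1 (0 to 46). The F test called 689 rows (329 to 1516). With the replicate block 1448 rows passed at day 5. With replicate 2 of days 3 and 5 left out 1057 rows passed at day 3 against day 0. The member counts under these alternatives are not read as a result about the members. The causes of these shifts were not tested.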
